A study of Drosophila melanogaster with 18 samples.

Results

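The cytoplasmic ribosome of the fruit fly is built from ribosomal RNA and a large family of small, basic proteins. The genes described here are those whose FlyBase symbol starts with RpL (large subunit) or RpS (small subunit) followed by a digit or by P and a digit, together with sta, the fly gene for the small subunit protein RpSA. The rule found 93 genes in the annotation, 39 of the small and 54 of the large subunit, and used no measured value. Of these 93 genes, 86 were listed at every time point, 35 of the small and 51 of the large subunit. They stood among 7617 genes listed at 0-1h, 8188 at 1-2h and 9141 at 2-3h, and among 9236 listed in any table.

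Ribosomal proteins are needed in nearly equal numbers, and their mRNAs are among the most abundant in growing cells. Their mRNAs carry a terminal oligopyrimidine tract at the 5′ end, through which the TOR pathway sets their translation, and in flies the loss of a single copy of many of these genes gives the Minute phenotype of slow growth and thin bristles. The early embryo starts with ribosomes and ribosomal protein mRNAs loaded by the mother, and goes on to make its own transcripts during the maternal-to-zygotic transition.

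Total RNA was sequenced from whole embryos of 2 genotypes of Drosophila melanogaster, sampled in 1-hour windows after egg laying, 0-1h, 1-2h and 2-3h. The first genotype, orb2-delta-zz, is an allele of orb2 named for the loss of the ZZ zinc-binding domain, and its protein ORB2 belongs to the CPEB family of RNA-binding proteins. The second, wild type, was w1118, given as the line before injection. Each genotype and time point had 3 libraries, 18 in all. The question, going by the series title, is how loss of that domain alters transcripts that ORB2 holds down. Nothing in the labels says whether the libraries of a group came from separate collections, so the p-values measure the spread between these libraries, which may be technical.

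The tests used normalized counts, in which each library was scaled by the authors within its own time point, and the levels of different genes are given as TPM, a transcript's share of its library that corrects for transcript length. A gene was called when the limma p-value, adjusted over all genes tested at that time point by the Benjamini-Hochberg method, was under 0.05. The sequencing depth of each library is unknown. TPM is a share of the transcript pool, so a lower value of these genes cannot be told apart from a higher value of other genes, and in whole embryos fewer cells of a type and less RNA per cell cannot be told apart either. Over the whole gene, orb2 had a mean normalized count of 2226 ± 141 in orb2-delta-zz and 2838 ± 122 in wild type at 0-1h (SD, n = 3 each). At 1-2h the means were 2176 ± 102 in orb2-delta-zz and 2860 ± 299 in wild type. At 2-3h orb2 had 596, 587 and 494 in orb2-delta-zz and 501, 1151 and 1570 in wild type, so the groups overlapped. A total of this kind checks nothing about the part that was removed. Markers of other stages differed in how far the genotypes stood apart. The summed TPM of 10 genes taken as late embryo markers was 10.2 to 20.5 in orb2-delta-zz and 93.7 to 108 in wild type at 0-1h. Only 4 of them were listed at that time, elav, Act87E, Mlc2 and sala. With 5 listed at 1-2h the sum was 111 to 136 in orb2-delta-zz and 300.2 to 946 in wild type. With 8 listed at 2-3h it was 983 to 1015 in orb2-delta-zz and 1984 to 4557 in wild type. The sums at the 3 times thus cover different genes. The summed TPM of 8 maternal transcripts was 7904 to 8391 in orb2-delta-zz and 7103 to 7733 in wild type at 0-1h, without overlap. The maternal sums overlapped at 1-2h, with 5657 to 5902 in orb2-delta-zz and 4767 to 6430 in wild type, and at 2-3h, with 1408 to 1492 in orb2-delta-zz and 886 to 2322 in wild type. The sums of 18 early zygotic genes overlapped at every time, with 177 to 243 in orb2-delta-zz and 191 to 257 in wild type at 0-1h, 889 to 1089 in orb2-delta-zz and 387 to 987 in wild type at 1-2h, and 2256 to 2855 in orb2-delta-zz and 2545 to 3284 in wild type at 2-3h. Of 13 eggshell and yolk genes 0 were listed at 0-1h and 1-2h and 2 at 2-3h. The part of these markers in the results below was not tested.

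Ribosomal protein transcripts made up a larger share of the pool at later times in both genotypes. In orb2-delta-zz the listed genes held 15.6%, 16.0% and 17.0% of the TPM of the 3 libraries at 0-1h, 18.5%, 18.6% and 18.3% at 1-2h, and 21.7%, 21.4% and 21.7% at 2-3h. In wild type they held 16.7%, 17.3% and 16.2% at 0-1h, 21.9%, 18.7% and 20.6% at 1-2h, and 23.3%, 23.7% and 22.0% at 2-3h. The genotypes overlapped at 0-1h, whereas at 1-2h and 2-3h every orb2-delta-zz library lay below every wild type library, with a narrow gap at 1-2h, where the highest orb2-delta-zz value was 18.6% and the lowest wild type value 18.7%. The small subunit accounted for 9.56% ± 0.17 in orb2-delta-zz and 10.2% ± 0.42 in wild type at 2-3h (SD, n = 3 each), and the large subunit for 12.1% ± 0.04 in orb2-delta-zz and 12.8% ± 0.48 in wild type. The 3 tables were scaled separately, so levels at different times are described here and not tested.

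**Figure D1:**
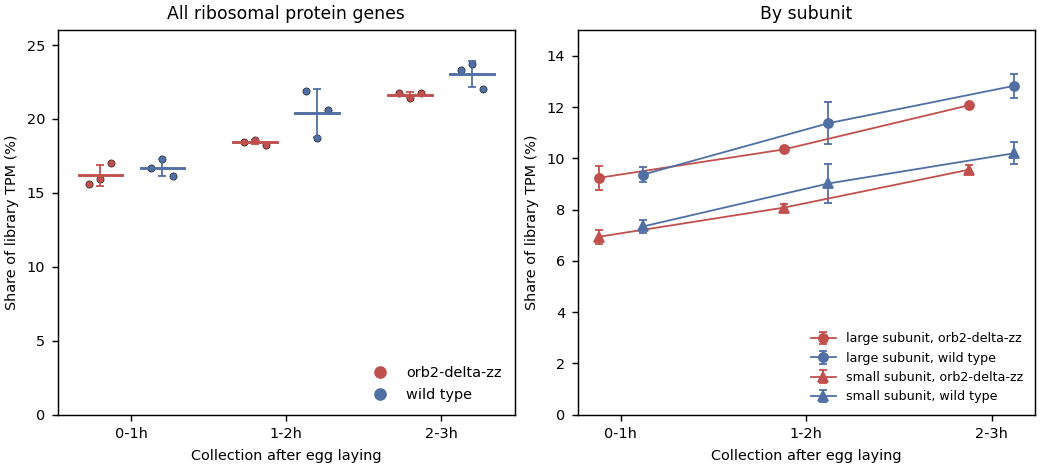
Share of each library's TPM held by ribosomal protein genes, in percent, for orb2-delta-zz (red) and wild type (blue) at 0-1h, 1-2h and 2-3h after egg laying. Left, points are libraries, with the mean and SD (n = 3) of all listed genes, and right, the means and SD of the large (circles) and small (triangles) subunit. The share is larger at later times in both genotypes, and the orb2-delta-zz libraries lie below the wild type libraries at 1-2h and 2-3h.

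Almost every gene of the family was higher at 2-3h than at 0-1h. The mean TPM at 2-3h was above that at 0-1h for 85 of 86 genes in orb2-delta-zz, with a median ratio of 1.36, and for 85 of 86 in wild type, with a median ratio of 1.38. Among all 6694 genes with a mean TPM of 5 or more, 33.9% had a ratio above 1 in orb2-delta-zz and 34.6% in wild type, and the median ratio was 0.71 in orb2-delta-zz and 0.73 in wild type. The 71 mitochondrial ribosomal protein genes, whose products make the separate ribosome of the mitochondrion, had a median ratio of 0.72 in orb2-delta-zz and 0.71 in wild type. The mean TPM was higher at each later time for 83 of the 86 genes in orb2-delta-zz and for 76 in wild type. For 78 genes in orb2-delta-zz and 83 in wild type, every library at 2-3h lay above every library at 0-1h. The share of all genes without overlap between these times is not given here.

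RpS15Ab and RpS6 were among the 3 largest ratios of TPM at 2-3h over 0-1h in both genotypes. RpS15Ab, a minor copy of the RpS15A gene, had a ratio of 2.00 in orb2-delta-zz and 1.93 in wild type, with levels of 57.8 TPM in orb2-delta-zz and 60.5 TPM in wild type at 0-1h. RpS6, the small subunit protein phosphorylated by S6 kinase, had a ratio of 1.77 in orb2-delta-zz and 1.70 in wild type. The remaining gene of the 3 was RpS15Aa, the major copy of the RpS15A gene, in orb2-delta-zz, with a ratio of 1.73, and RpL37A in wild type, with a ratio of 1.75.

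The exception was RpL38, a large subunit protein that in mice is needed for the translation of a subset of Hox mRNAs. Its mean TPM was 944 at 0-1h, 772 at 1-2h and 735 at 2-3h in orb2-delta-zz, and 946, 981 and 730 in wild type. In each genotype its 3 libraries at 2-3h lay below its 3 libraries at 0-1h, the only gene of the family for which this was so. The smallest other ratios in orb2-delta-zz were those of RpS27A, 1.07, and RpL29, 1.07, and in wild type those of RpLP0, 1.05, and RpL39, 1.08.

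**Figure D2:**
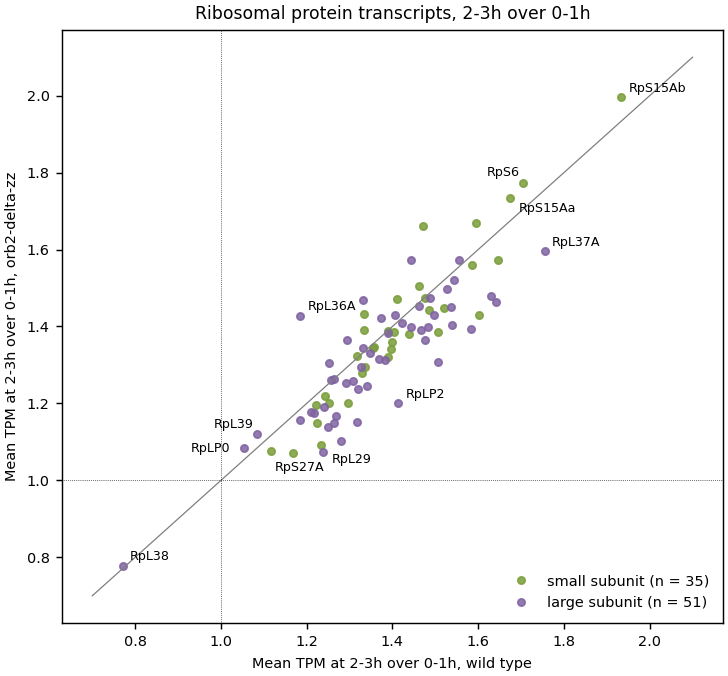
Ratio of mean TPM at 2-3h over 0-1h for the 86 ribosomal protein genes, in orb2-delta-zz (vertical axis) and wild type (horizontal axis), with small subunit genes in green and large subunit genes in purple. The grey line marks equal ratios, and the dotted lines mark no change over time. Of the 86 genes, 85 lie above 1 on both axes, and RpL38 lies below 1 on both.

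Levels varied over 2 orders of magnitude among the 86 genes listed at every time. By mean TPM over the 18 libraries the highest was RpL41, at 10375, which encodes the shortest protein of the family. RpS25 followed with 6500 TPM, RpL10 with 6482, RpS2 with 6479 and RpS3A with 6303. The lowest of the 86 were RpS15Ab with 85.6 TPM, RpL36A with 116, RpLP0-like with 167, RpL24-like with 174 and RpL7-like with 219. In yeast the relatives of the last 3 are ribosome assembly factors and not parts of the mature ribosome.

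Between genotypes the family leaned low in orb2-delta-zz, by small amounts. The median log2 fold change of orb2-delta-zz over wild type was -0.08 over 86 genes at 0-1h, -0.18 over 86 at 1-2h and -0.13 over 87 at 2-3h. For all genes tested it was -0.01, -0.01 and 0.00, which the scaling within each time point holds near 0. Values below 0 were found for 67 of 86 genes at 0-1h, 76 of 86 at 1-2h and 74 of 87 at 2-3h. At all 3 times 62 of the 86 genes, 72.1%, were below 0, against 25.8% of the 7470 genes tested at every time. Without wild type replicate 2 the median at 0-1h was -0.01, and at 1-2h it was -0.07 without wild type replicate 1 and -0.31 without wild type replicate 2. On TPM the medians were -0.05, -0.10 and -0.09, against 0.03, 0.07 and 0.04 for all genes.

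Few genes of the family passed the test. At 0-1h limma called 9 of the 86 genes, 1 higher and 8 lower in orb2-delta-zz, which is 10.5% of them, against 21.3% of all 7559 genes tested. Of all genes 11.2% were called higher and 10.1% lower, so the share of the family called lower is near that of all genes. At 1-2h it called 0 higher and 3 lower of 86, against 7.37% of all genes called, 3.52% called higher and 3.85% called lower. At 2-3h it called 0 higher and 1 lower of 87, against 3.28% called, 1.55% called higher and 1.73% called lower. At an unadjusted p under 0.05, the limma test gave 1 gene higher and 16 lower at 0-1h, 0 higher and 25 lower at 1-2h, and 2 higher and 21 lower at 2-3h. The lower ones are 18.6%, 29.1% and 24.1% of the genes of the family tested, against 17.3%, 13.0% and 8.91% of all genes, so at 0-1h the share is near that of all genes. The higher ones are 1.16%, 0% and 2.30%, against 17.0%, 11.2% and 7.38% of all genes.

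The groups of libraries were often apart without a call. Every orb2-delta-zz library lay below every wild type library for 14 genes of the family at 0-1h, 24 at 1-2h and 28 at 2-3h, which is 16.3%, 27.9% and 32.2% of those tested, against 18.9%, 16.3% and 11.4% of all genes. In either direction 38.9%, 32.8% and 23.5% of all genes did not overlap. The reverse order was found for 1, 0 and 3 genes at the 3 times, against 20.1%, 16.5% and 12.2% of all genes. The 6 genes with orb2-delta-zz below wild type in every library at all 3 times were RpL31, RpL35, RpS15, RpS20, RpS26 and RpS27A, and RpL35 is named here after its values were seen. The share of all genes with that order at all 3 times is not given here, so the 6 are a description only. The 5 genes with a log2 fold change above 0 at all 3 times were RpLP2, RpL36A, RpL24-like, RpLP0-like and RpS18, which is 5.81% of the 86 against 25.5% of the genes tested at every time.

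**Figure D3:**
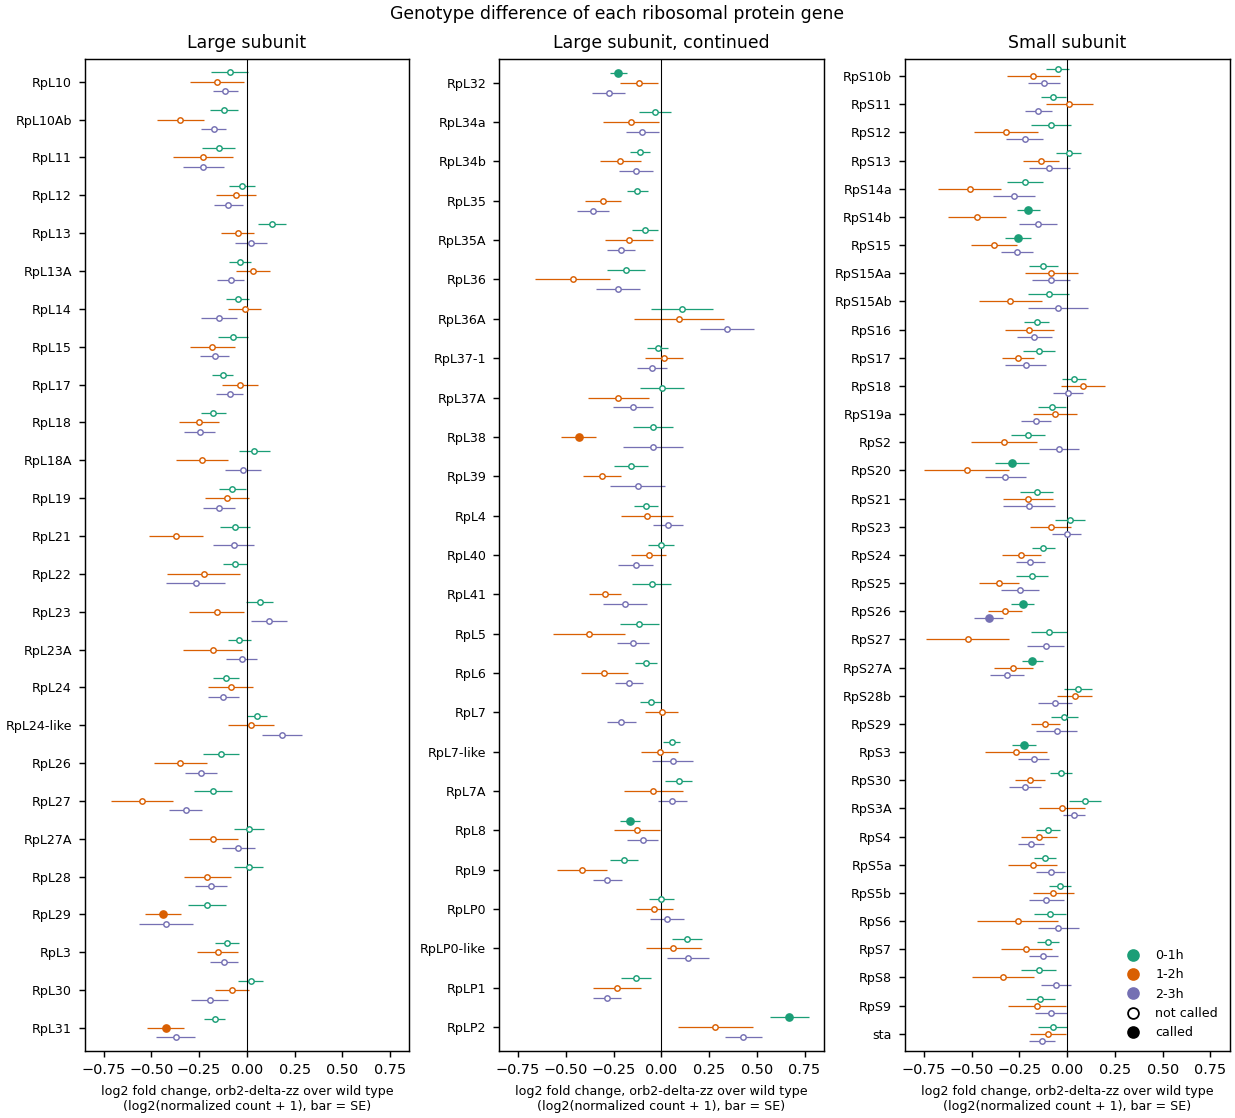
Log2 fold change of orb2-delta-zz over wild type, on the log2(normalized count + 1) scale, for the 86 ribosomal protein genes listed at every time, with standard errors as bars. Colours give the time point, and filled points are genes called by limma at an adjusted p under 0.05. Most points lie left of 0, with RpLP2 far to the right, and 9 points are filled at 0-1h, 3 at 1-2h and 1 at 2-3h.

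Genes of the family moved together from library to library. At 0-1h, wild type replicate 2 was above the mean of its group for 85 of the 86 genes and the highest of the 6 libraries for 66. In orb2-delta-zz at 0-1h, replicate 3 was above its group mean for 84 genes. At 1-2h wild type replicate 1 was the highest of 6 for 70 genes, with a median deviation of 0.23 on the log2 scale, and wild type replicate 2 was above its group mean for 0 genes, with a median deviation of -0.23. At 2-3h wild type replicate 2 was the highest of 6 for 53 of 87 genes, and orb2-delta-zz replicate 3 the lowest for 53. The median deviation of all genes in these libraries was within 0.02 of 0. Scaling the libraries within each time point holds that median near 0, so it gives no comparison for the family. The calls of single genes below are therefore not independent of each other.

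The stalk of the large subunit held the 1 gene that was called higher. The stalk is the flexible arm that recruits the elongation factors, and is built from RpLP0 at its base and from the acidic proteins RpLP1 and RpLP2, which bind it in pairs. RpLP2 (FBgn0003274; chromosome 2R, 16586129 to 16586732, plus strand, a gene of 1 exon in the BDGP6.54 annotation) had normalized counts of 38624, 39067 and 49176 in orb2-delta-zz at 0-1h, against 26024, 29517 and 23968 in wild type. The lowest orb2-delta-zz library stood well above the highest wild type library. RpLP2 was higher in orb2-delta-zz by log2 fold change 0.67 (SE 0.10, adjusted p = 0.00157, limma), with 4002 ± 463 TPM in orb2-delta-zz and 2448 ± 145 TPM in wild type (SD, n = 3 each).

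At the later times RpLP2 did not pass. At 1-2h its normalized counts were 52216, 52380 and 47898 in orb2-delta-zz, against 58201, 32266 and 38720 in wild type. Wild type replicate 1 was the highest of the 6 and the groups overlapped, with log2 fold change 0.28 (SE 0.20, adjusted p = 0.427, limma). Without that library the log2 fold change was 0.52 (limma adjusted p = 0.0288), and over all alternatives at 1-2h the adjusted p was 0.00117, with library weights, to 0.706.

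At 2-3h RpLP2 had 67766, 62407 and 56026 normalized counts in orb2-delta-zz, against 47541, 48213 and 42289 in wild type. The groups did not overlap, and the log2 fold change was 0.43 (SE 0.10, adjusted p = 0.0755, limma). On TPM it was called, with log2 fold change 0.48 (adjusted p = 0.0233, limma), and it was called without wild type replicate 1, with 0.45 (limma adjusted p = 0.0347). Over all alternatives the limma adjusted p was 4.93e-04, with library weights that did not converge, to 0.253. The genotype effect of RpLP2 at 1-2h minus that at 0-1h was -0.39 (SE 0.23, adjusted p = 1.00, limma), and at 2-3h minus 0-1h it was -0.24 (SE 0.23, adjusted p = 0.786, limma). The call at 0-1h was kept in all 16 alternatives run, the 6 that each left out a library included, with log2 fold changes of 0.56 to 0.75.

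Its partner RpLP1 was not called at any time. RpLP1 had 1789, 1883 and 1913 TPM in orb2-delta-zz at 0-1h, against 2062, 2100 and 1819 TPM in wild type, with log2 fold change -0.13 (adjusted p = 0.277, limma). At 2-3h it had 2758, 2658 and 2845 TPM in orb2-delta-zz, against 3284, 3344 and 3126 TPM in wild type. There every orb2-delta-zz library was below every wild type library, with log2 fold change -0.29 (adjusted p = 0.109, limma). RpLP0 had log2 fold changes of 0.00, -0.04 and 0.03 at the 3 times (limma adjusted p = 0.996, 0.854 and 0.894).

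The ratio of RpLP2 to RpLP1 within a library does not depend on how that library was scaled. In TPM it was 2.05, 2.02 and 2.37 in orb2-delta-zz at 0-1h, against 1.20, 1.23 and 1.26 in wild type. At 1-2h the ratio was 1.84, 1.94 and 1.79 in orb2-delta-zz, against 1.55, 1.21 and 1.17 in wild type, and at 2-3h it was 1.80, 1.82 and 1.62 in orb2-delta-zz, against 1.10, 1.07 and 1.02 in wild type. For this ratio the orb2-delta-zz libraries lay above the wild type libraries at all 3 times. The ratio of RpLP2 to RpLP0 overlapped at 1-2h, with 4.28, 4.46 and 4.27 in orb2-delta-zz and 4.41, 3.03 and 3.13 in wild type. At 0-1h and 2-3h it was higher in every orb2-delta-zz library, without overlap. The ratio of RpLP1 to RpLP0 overlapped at 0-1h, and was lower in every orb2-delta-zz library at 1-2h and 2-3h. At 1-2h it was 2.32, 2.30 and 2.39 in orb2-delta-zz and 2.85, 2.50 and 2.69 in wild type. At 2-3h it was 2.74, 2.70 and 2.81 in orb2-delta-zz and 3.71, 3.37 and 3.21 in wild type. The separation of RpLP2 over RpLP1 at 1-2h can therefore not be credited to RpLP2 alone.

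The genes flanking RpLP2 were not called higher. Cdk4, which encodes a cyclin-dependent kinase and lies upstream of RpLP2 on the same strand, was lower in orb2-delta-zz at 0-1h, with log2 fold change -0.22 (adjusted p = 0.00873, limma). Dolk, on the other side and on the minus strand, had a log2 fold change of -0.11 at 0-1h (limma adjusted p = 0.331). Beyond Dolk, CG8306 leaned higher at 0-1h, with 0.39, and did not pass (limma adjusted p = 0.0647). Beyond Cdk4, Lst leaned lower at low counts, with -1.19, and did not pass (limma adjusted p = 0.0974). RpS15, also in this region of chromosome 2R (16570112 to 16571230, minus strand), was among the genes that fell. RpLP2 overlapped no other gene in the annotation.

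**Figure D4:**
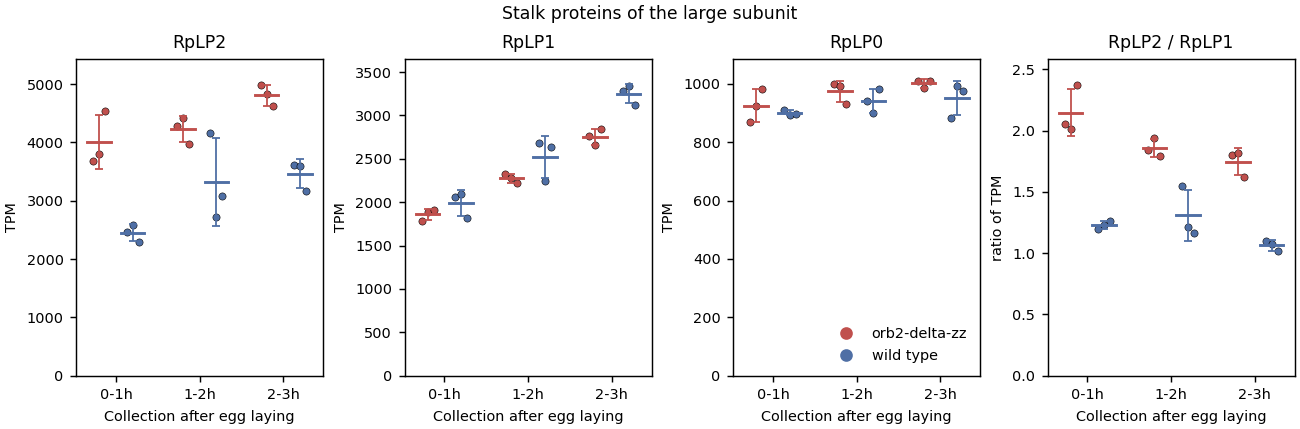
TPM of the stalk genes RpLP2, RpLP1 and RpLP0, and the ratio of RpLP2 to RpLP1, in each library of orb2-delta-zz (red) and wild type (blue) at 3 times, with means and SD (n = 3). RpLP2 is higher in every orb2-delta-zz library at 0-1h and 2-3h, and the ratio is higher in every orb2-delta-zz library at all 3 times.

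Of the small subunit, 6 of 35 genes were called lower at 0-1h, 0 at 1-2h and 1 of 36 at 2-3h, against 10.1%, 3.85% and 1.73% of all genes, and 0 were called higher at any time. At an unadjusted p under 0.05, limma gave 9, 11 and 9 small subunit genes lower, which is 25.7%, 31.4% and 25.0% against 17.3%, 13.0% and 8.91% of all genes, and 0 higher at each time. The median log2 fold changes were -0.10, -0.21 and -0.13. RpS26 (FBgn0261597; chromosome 2L, 18441335 to 18443277, minus strand), a protein that lines the exit of the mRNA channel, was the only gene of the family called at more than 1 time.

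RpS26 had normalized counts of 12527, 12552 and 13436 in orb2-delta-zz at 0-1h, against 15732, 15867 and 13746 in wild type. At 2-3h it had 22384, 22870 and 22031 in orb2-delta-zz, against 29458, 31605 and 28417 in wild type. The groups did not overlap at either time, with a narrow gap at 0-1h and a wide one at 2-3h. RpS26 fell by a log2 fold change of -0.23 at 0-1h (SE 0.06, adjusted p = 0.0232, limma) and of -0.41 at 2-3h (SE 0.08, adjusted p = 0.0390, limma). At 1-2h the groups did not overlap either, with log2 fold change -0.33 (SE 0.09, adjusted p = 0.0751, limma). The call at 2-3h was kept without wild type replicate 1 and lost without any of the other 5 libraries, and that at 0-1h was lost without orb2-delta-zz replicate 1 or 2 or wild type replicate 1 or 2, where the fold changes kept their sign. Both calls were lost when same-numbered libraries were blocked (limma adjusted p = 0.0662 at 0-1h and 0.142 at 2-3h).

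The other genes of the small subunit that fell at 0-1h included RpS20 and RpS15. RpS20, a protein of the head, had normalized counts of 21373, 20057 and 22948 in orb2-delta-zz, against 24457, 30281 and 24196 in wild type. RpS15, which lies in the head near the decoding site, had 15878, 15515 and 17990 in orb2-delta-zz, against 18941, 21293 and 18822 in wild type. For both the groups did not overlap, and wild type replicate 2 was the highest library. RpS20 had log2 fold change -0.29 (adjusted p = 0.0433, limma) and RpS15 had -0.26 (limma adjusted p = 0.0252).

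RpS3, which lines the mRNA entry channel, had 22674, 22244 and 23329 normalized counts in orb2-delta-zz at 0-1h, against 25971, 29219 and 24743 in wild type, with log2 fold change -0.22 (adjusted p = 0.0321, limma). RpS27A, which is made as a fusion with ubiquitin, had 23868, 23834 and 25679 in orb2-delta-zz, against 27026, 29380 and 26938 in wild type, with log2 fold change -0.18 (adjusted p = 0.0400, limma). Neither gene overlapped between groups. Ip259 lies wholly inside RpS27A on the same strand, so the counts of RpS27A and Ip259 may not be separable.

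RpS14b had 13820, 14455 and 15801 normalized counts in orb2-delta-zz at 0-1h, against 16418, 18068 and 16259 in wild type, and fell by log2 fold change -0.20 (adjusted p = 0.0414, limma). Its neighbour RpS14a on chromosome X encodes the same protein, and how reads were divided between the pair is uncertain. Outside 0-1h these 5 genes did not pass, with log2 fold changes at 1-2h of -0.53 for RpS20, -0.38 for RpS15, -0.27 for RpS3, -0.28 for RpS27A and -0.47 for RpS14b. At 2-3h the values were -0.32, -0.26, -0.18, -0.32 and -0.15 in the same order. Each of the 5 calls at 0-1h was lost in 3 to 5 of the 6 fits that left out a library, in every case without orb2-delta-zz replicate 1 or 2 or wild type replicate 1. On TPM those of RpS27A and RpS14b were lost as well.

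RpSA, encoded by sta, sits at the junction of head and platform. The gene had 1131, 1264 and 1276 TPM in orb2-delta-zz at 0-1h, against 1267, 1301 and 1208 TPM in wild type, and the groups overlapped. Its log2 fold changes were -0.08, -0.10 and -0.13 at the 3 times, and none passed (limma adjusted p = 0.506, 0.572 and 0.412). RpS27, with the third largest negative value at 1-2h, had log2 fold change -0.52 (adjusted p = 0.198, limma), with 22858 normalized counts in wild type replicate 1 against 11948 and 13768 in the other wild type libraries and 10297 to 11363 in orb2-delta-zz.

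Of the large subunit, 1 of 51 genes was called higher and 2 lower at 0-1h, 0 higher and 3 lower at 1-2h, and 0 at 2-3h. Of all genes 11.2% were called higher and 10.1% lower at 0-1h, 3.52% and 3.85% at 1-2h, and 1.55% and 1.73% at 2-3h. At an unadjusted p under 0.05, limma gave 1 higher and 7 lower at 0-1h, 0 and 14 at 1-2h, and 2 and 12 at 2-3h, so that 13.7%, 27.5% and 23.5% were lower against 17.3%, 13.0% and 8.91% of all genes. The median log2 fold changes were -0.06, -0.17 and -0.13. RpL32 (FBgn0002626; chromosome 3R, 30045229 to 30046161, minus strand), long known as rp49 and widely used as a reference transcript in fly quantitative PCR, had normalized counts of 13933, 14725 and 14446 in orb2-delta-zz at 0-1h, against 17421, 16669 and 16279 in wild type.

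The RpL32 groups did not overlap at 0-1h, and RpL32 fell by log2 fold change -0.22 (SE 0.04, adjusted p = 0.00620, limma). The call was kept in all 6 fits that left out a library and lost on TPM (limma adjusted p = 0.0712). At 1-2h the groups overlapped, with log2 fold change -0.12 (adjusted p = 0.526, limma), and at 2-3h they were apart, with -0.27 (limma adjusted p = 0.172). RpL8, a protein close to the peptidyl transferase centre, had 29689, 28163 and 29346 normalized counts in orb2-delta-zz at 0-1h, against 32758, 33691 and 31253 in wild type, log2 fold change -0.16 (adjusted p = 0.0463, limma), and is named here after its values were seen. That call was kept only without wild type replicate 3 among the 6 fits that left out a library, and was lost on TPM.

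At 1-2h RpL29, RpL31 and RpL38 fell by similar amounts. RpL31, which lies near the mouth of the peptide exit tunnel, had normalized counts of 10702, 10482 and 10993 in orb2-delta-zz, against 16356, 13140 and 13924 in wild type, with log2 fold change -0.43 (SE 0.09, adjusted p = 0.0379, limma). RpL38 had 4210, 4313 and 4039 in orb2-delta-zz, against 6276, 5161 and 5565 in wild type, with log2 fold change -0.43 (SE 0.09, adjusted p = 0.0311, limma). RpL29, a small protein of the large subunit, had 2186, 2129 and 2304 in orb2-delta-zz, against 2915, 2765 and 3304 in wild type, with log2 fold change -0.44 (SE 0.09, adjusted p = 0.0334, limma). The groups did not overlap for any of the 3.

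These 3 calls at 1-2h were lost without any single orb2-delta-zz library or without wild type replicate 3, and kept without wild type replicate 1 or 2, and that of RpL29 was lost on TPM. At the other times none of the 3 passed. RpL31 was below wild type in every library at 0-1h and 2-3h too, with log2 fold changes of -0.17 and -0.37 (limma adjusted p = 0.0614 and 0.127). RpL29 had log2 fold changes of -0.21 and -0.42 (limma adjusted p = 0.171 and 0.204), and RpL38 of -0.05 and -0.04 (limma adjusted p = 0.796 and 0.922). For RpL38 the difference between 1-2h and 0-1h was -0.39 (SE 0.19, adjusted p = 1.00, limma), and at 2-3h minus 1-2h it was 0.39 (SE 0.19, adjusted p = 0.511, limma).

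RpL27 had the most negative value of the family at 1-2h, -0.55, and did not pass (SE 0.16, adjusted p = 0.0880, limma). Its normalized counts were 32771, 37078 and 37607 in orb2-delta-zz, against 66907, 42668 and 50015 in wild type. Wild type replicate 1 was the highest, and the groups did not overlap. RpL35, at the exit of the peptide tunnel, had log2 fold changes of -0.12, -0.31 and -0.36 at 0-1h, 1-2h and 2-3h (limma adjusted p = 0.137, 0.102 and 0.0865).

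RpL36A had the largest positive value at 2-3h after RpLP2 and RpS19b. It had 1295, 1186 and 1061 normalized counts in orb2-delta-zz, against 1052, 863 and 878 in wild type. The groups were apart by a small margin and the log2 fold change of 0.34 did not pass (SE 0.14, adjusted p = 0.299, limma). RpL13 at 0-1h had a positive value of 0.13 that did not pass either, and RpS18 had values of 0.04, 0.08 and 0.01.

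**Figure D5:**
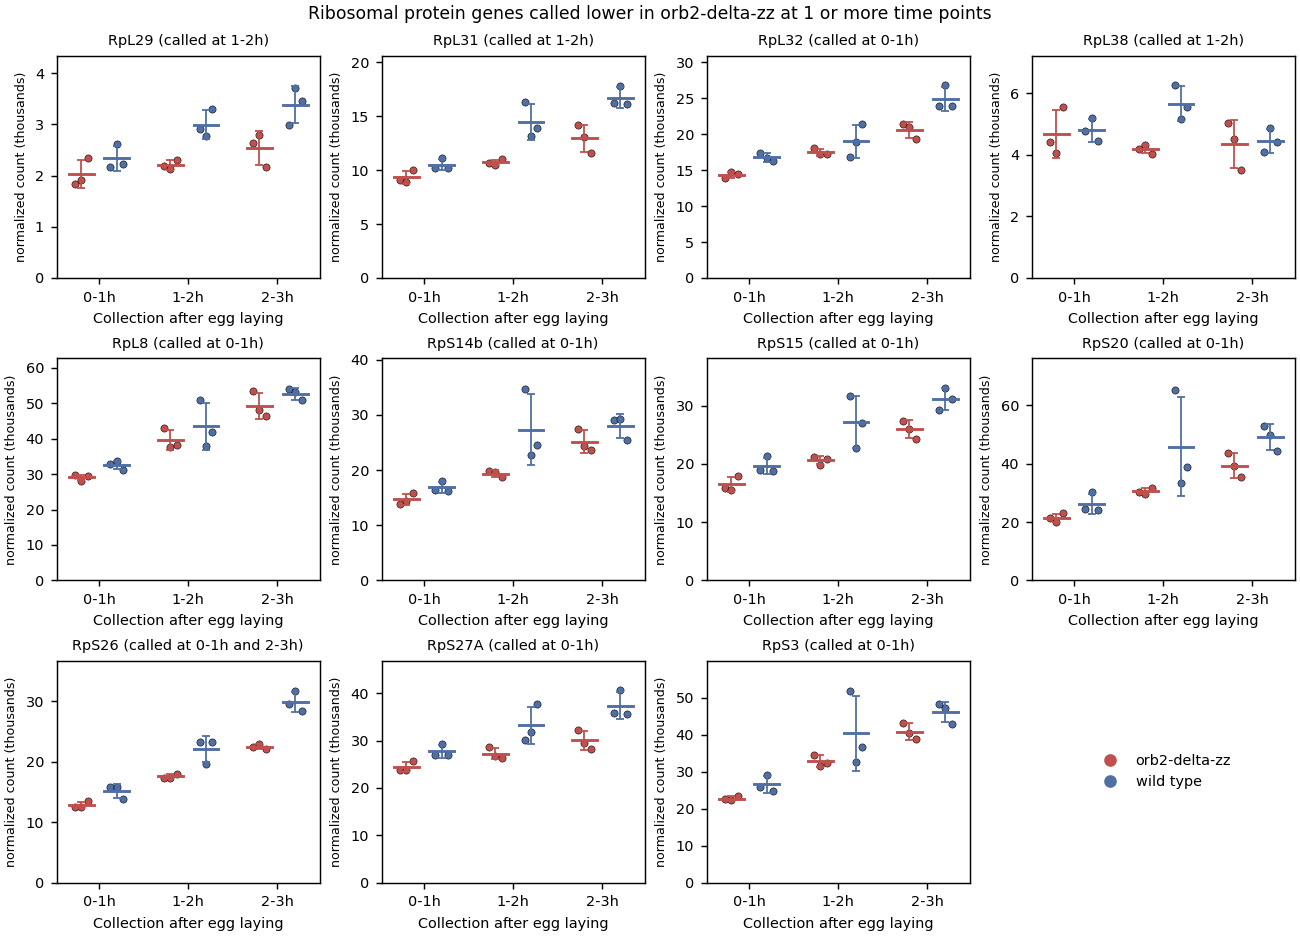
Normalized counts of the 11 ribosomal protein genes called lower in orb2-delta-zz (red) than in wild type (blue) at 1 or more times, with every library as a point and the mean and SD (n = 3) as lines. The orb2-delta-zz libraries lie below the wild type libraries at the time of each call, and wild type replicate 1 stands far above the other libraries for RpS20, RpS3 and RpS14b at 1-2h.

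The genotype effect was compared between times in 1 fit of all 18 libraries. In the 3 contrasts limma called 0 of 86 genes of the family, with 0 at an unadjusted p under 0.05 in each, whereas of all genes 0.12% were called for the step to 1-2h, 1.89% for 2-3h set against the first hour, and 0.79% for the last step. With a separate spread for each time the calls were also 0, with 2, 1 and 0 genes at an unadjusted p under 0.05. A time at which a gene was called and another at which it was not are therefore not shown to differ.

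Some ribosomal proteins are encoded by more than 1 gene. Of the second copies, 4 had no row in any table and 3 were listed at 2-3h alone. The 4 without a row were RpL22-like, RpS10a, RpS28a and RpS28-like. RpS19b had 1.76, 2.03 and 1.71 TPM in orb2-delta-zz at 2-3h, against 1.49, 1.32 and 1.29 TPM in wild type, with log2 fold change 0.36 (SE 0.27, adjusted p = 0.569, limma), next to RpS19a as the main copy. RpL10Aa, at 0.70 to 1.14 TPM in orb2-delta-zz and 0.26 to 0.40 TPM in wild type, and RpL37-2, at 0.44 to 2.21 TPM in orb2-delta-zz and 0.71 to 2.99 TPM in wild type, were under the minimum for the test.

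Other second copies were abundant. RpS5b, a copy known for its use in the female germline, held 51.7% ± 0.43 of the summed TPM of RpS5a and RpS5b in orb2-delta-zz and 50.3% ± 1.1 in wild type at 0-1h (SD, n = 3 each), and 48.8% ± 1.1 in orb2-delta-zz and 49.2% ± 1.6 in wild type at 2-3h. RpL34a held 28.8% ± 0.67 of its pair in orb2-delta-zz and 27.7% ± 1.4 in wild type at 0-1h. RpS15Ab held 6.58% ± 0.22 of its pair in orb2-delta-zz and 6.47% ± 0.40 in wild type at 0-1h. At the times given the genotypes overlapped for all 3 pairs. The share of RpS14a was 68.2% ± 0.22 in orb2-delta-zz and 68.4% ± 1.9 in wild type at 0-1h, with overlap, and 69.0% ± 0.96 in orb2-delta-zz and 70.8% ± 0.22 in wild type at 2-3h, where every orb2-delta-zz library was lower, with the limit on dividing reads given above. At 1-2h the share of RpS15Ab was 6.35% ± 0.11 in orb2-delta-zz and 7.31% ± 0.41 in wild type, without overlap, and at 2-3h the groups overlapped.

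The "-like" genes had values near or above 0. RpL24-like held 12.8%, 12.8% and 13.5% of the summed TPM of RpL24 and RpL24-like in orb2-delta-zz at 0-1h, against 11.7%, 10.9% and 12.7% in wild type. At 2-3h it held 14.7%, 15.2% and 14.5% in orb2-delta-zz, against 13.1%, 11.6% and 12.3% in wild type. The share was higher in every orb2-delta-zz library at these times and also at 1-2h, and at 0-1h the nearest libraries were at 12.8% in orb2-delta-zz and 12.7% in wild type. The log2 fold changes of RpL24-like itself were 0.05, 0.02 and 0.18, those of RpLP0-like 0.14, 0.06 and 0.14, and those of RpL7-like 0.05, -0.01 and 0.06, and none of these passed. The tested genes treated as second copies were RpL34a, RpS5b, RpS14a, RpS15Ab, RpS19b, RpL7-like, RpL24-like and RpLP0-like. Of these, RpS14a was the more abundant gene of its pair. Without the genes treated as second copies limma called 9, 3 and 1 genes of 79, and the medians were -0.09, -0.19 and -0.15.

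The genes of the family are short and spread over the genome. The 86 genes listed at every time had a median coding length of 468 bases, against 1397 in 7384 other genes, and 18 lay on chromosome 2L, 19 on 2R, 14 on 3L, 19 on 3R, 15 on X and 1, RpS3A, on chromosome 4. In all, 29 of the 86 hosted 76 small nucleolar RNA genes in the annotation, and 23 overlapped another protein-coding gene. Among the called genes, RpS20 overlapped CG17272 by 44 bases, RpL31 overlapped clos by 37, RpS15 overlapped CG4945 by 9 and RpL29 overlapped CG9752 by 3, all on the opposite strand and besides Ip259 in RpS27A, and the use of strand in counting is not stated. Across the family the Spearman correlation of transcript length with the log2 fold change was 0.08 at 0-1h, 0.24 at 1-2h and 0.23 at 2-3h (86, 86 and 87 genes that share their libraries), against -0.16, -0.14 and -0.11 over all genes, which describes these libraries only.

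Genes that build ribosomes had medians above 0, and whether they differ from the ribosomal protein genes was not tested. Of 38 ribosome biogenesis symbols listed, 32 were tested. At 0-1h limma called 9 of them higher in orb2-delta-zz and 0 lower, or 28.1% higher, against 11.2% of all genes, and the median log2 fold change was 0.10. Nop56, a core protein of the small nucleolar particles that methylate ribosomal RNA, had normalized counts of 10360 ± 106 in orb2-delta-zz and 8334 ± 232 in wild type (SD, n = 3 each), log2 fold change 0.31 (adjusted p = 3.83e-04, limma). Polr1A and Polr1B, subunits of RNA polymerase I, rose by 0.18 and 0.23, and eIF6, which keeps the new large subunit from joining early, rose by 0.26. The others were wcd, nclb, Ns1, mbm and the pre-40S kinase RIOK2, by 0.33, 0.33, 0.28, 0.26 and 0.18.

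At 1-2h limma called 2 biogenesis genes higher and 0 lower, or 6.25% higher against 3.52% of all genes. These were nclb and wcd, a part of the U3 particle that processes the small subunit RNA, by 0.43 and 0.39 (limma adjusted p = 0.0469 and 0.0432). At 2-3h limma called 0, against 3.28% of all genes, and the median was 0.15. At an unadjusted limma p under 0.05, 6 were higher and 0 lower, against 7.38% and 8.91% of all genes. The largest value there was that of Fib, fibrillarin, with 0.35 (limma adjusted p = 0.116).

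Factors that work with the finished ribosome were tested as well. Of 14 elongation, termination and ribosome-associated factors tested at 0-1h, limma called 0 higher and 1 lower, eEF1delta, an exchange factor subunit of elongation factor 1, by -0.20 (limma adjusted p = 0.0326), where 21.3% of all genes were called. At 1-2h and 2-3h it called 0 of 15, against 7.37% and 3.28% of all genes. At an unadjusted limma p under 0.05, 2 were higher and 1 lower at 1-2h, against 11.2% and 13.0% of all genes. At 2-3h, 2 were higher and 0 lower, against 7.38% and 8.91%. Of 17 regulators of ribosomal protein supply, 1 was called at 0-1h and at 1-2h and 0 at 2-3h, against the same shares of all genes. It was Thor, which encodes the fly 4E-BP, an inhibitor of cap-dependent translation under TOR control. Thor had normalized counts of 114 ± 12.8 in orb2-delta-zz and 47.9 ± 10.9 in wild type at 0-1h (SD, n = 3 each), log2 fold change 1.25 (adjusted p = 0.00380, limma). At 1-2h its log2 fold change was 0.85 (limma adjusted p = 0.0473), and at 2-3h it was 0.70 and did not pass (limma adjusted p = 0.146). At 2-3h 1 regulator was higher and 0 lower at an unadjusted limma p under 0.05, against 7.38% and 8.91% of all genes.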

How the data were processed

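RNA depleted of ribosomal RNA was sequenced with a directional library kit, per the labels' protocols. Trim Galore 0.6.5, Salmon 1.9.1 and DESeq2 1.42.1 are named without roles, per the submitters' processing notes. The build, annotation and strand use in counting were not given in the sources used here. Per time point the authors deposited normalized counts (a signal scaled per library within its table) and TPM. Of the low normalized counts, 25.4% to 64.8% per library were whole numbers of reads within 0.1, short of the 95% set as a minimum, and a count test was therefore left out and depth is unknown. All 18 libraries were used, and 0 columns were left unmapped.

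The genotypes at a time point were compared by limma 3.58.1 (trend, two-sided, R 4.3.3). Values entered as log2(normalized count + 1), genes needed a mean of at least 10 over 6 libraries, and p-values had Benjamini-Hochberg adjustment at 0.05. Such fold changes understate those of low genes. Effects of genotype were compared between times in 1 limma fit of 18 libraries. The fits were tested on simulated data. Symbols and positions come from Ensembl BDGP6.54 by FlyBase identifier. The members and gene lists were chosen with earlier results of these data known. Genes were named by rule: the largest changes, called or not, the highest and lowest levels, the extreme changes over time, the stalk genes, sta and second copies. RpL8 and RpL35 were named after their values were seen. The symbols CG7637, RpI1, RpI135, BOP1, Udd, Taf1B, eIF5A, Tor and S6KII of the gene lists were not matched. Same-numbered libraries deviated together weakly at 1-2h (Pearson's r 0.16, 0.13 and 0.17 across genes). At 2-3h orb2-delta-zz replicate 1 and wild type replicate 2, with different numbers, reached 0.18. Such values do not settle whether the numbers pair the libraries, and the main tests are unpaired. Alternatives covered the pseudocount, the filter, trimmed mean factors, TPM, the replicate block, limma library weights, the threshold, the spread, and each library left out, and medians without second copies were added after seeing the data. Figures were drawn with matplotlib 3.10.9.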

Additional observations from a re-analysis of the deposited data

How the results depend on the processing

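The directions of the medians, the summed TPM and the 0 calls between times held under every alternative run. The number of ribosomal protein genes called did not. At 0-1h, 9 became 2 at a threshold of 0.01, 5 on TPM, 2 with the replicate block and 2 to 13 without single libraries. At 1-2h, 3 became 0 at 0.01, 7 at 0.10, 64 with library weights and 0 to 26 without single libraries, and with the replicate block the same 3 genes of the family were called, and 495 of all genes against 597. At 2-3h, 1 became 0 at 0.01, 3 at 0.10, 2 on TPM, 0 with the replicate block, 72 with library weights and 0 to 4 without single libraries. The highest counts came without orb2-delta-zz replicate 3 at 0-1h, wild type replicate 2 at 1-2h and wild type replicate 1 at 2-3h. Whether the numbers pair the libraries is not known, and same-numbered libraries correlated at -0.06 to 0.02 at 0-1h and -0.33 to -0.13 at 2-3h.

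Of all genes, 857 were called at 0-1h at 0.01. At 1-2h the count was 211 at 0.01, 1012 at 0.10, 3868 with library weights and 203 to 1261 without single libraries. At 2-3h it was 92, 508, 5445 and 77 to 1666, and 55 with the replicate block. On TPM the split at 0-1h was 789 higher and 455 lower, against 844 and 766, and at 1-2h 292 and 204, against 285 and 312. With library weights the median of ribosomal protein genes at 2-3h was -0.21, and RpL7 and RpS28b at 1-2h reversed, to -0.13 and -0.13. The weights did not converge at 1-2h and 2-3h, where 1 wild type library had a weight of 13.2 and 1124, and the cause was not tested. Unknown depth leaves the counting error of low genes unmeasured.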

Other observations

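The mitochondrial ribosomal protein genes, whose products make a separate ribosome, had medians above 0 in orb2-delta-zz over wild type. Of 71 tested, limma called 6 higher and 2 lower in orb2-delta-zz at 0-1h, 3 higher and 1 lower at 1-2h, and 3 higher and 0 lower at 2-3h, against 21.3%, 7.37% and 3.28% of all genes called. The share called higher was 8.45%, 4.23% and 4.23%. Of all genes 11.2%, 3.52% and 1.55% were called higher, and 10.1%, 3.85% and 1.73% lower. The median log2 fold changes of the 71 genes were 0.06, 0.13 and 0.18, with 48, 51 and 58 of them above 0. Of all genes, 3623 of 7559, 3951 of 8095 and 4505 of 9014 were above 0. The largest change was that of mRpL14, with normalized counts of 991 ± 97.6 in orb2-delta-zz and 296 ± 20.2 in wild type at 0-1h (SD, n = 3 each), or 1.74 as a log2 fold change (adjusted p = 2.47e-06, limma). At 1-2h it was 1.82 and at 2-3h 2.03 (limma adjusted p = 2.01e-04 and 7.82e-04). mRpL28 was called higher at all 3 times, by 0.63, 0.71 and 0.80, and mRpL22 was called lower at 0-1h and 1-2h, by -0.38 and -0.64. The mitochondrial and cytoplasmic genes were measured in the same libraries, and the difference between the lists was not tested.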
